A study of Mus musculus with 21 samples.

Results

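Microglia from the brains of adult 5XFAD mice were compared with microglia from adult wild-type mice, 3 libraries of each among the 21 RNA-seq libraries of the series. 5XFAD mice carry human transgenes with familial Alzheimer's disease mutations, the amyloid precursor protein among them, expressed in neurons from the Thy1 promoter, and they form amyloid plaques. The 6 libraries were chosen by their labels. They sit in 1 table with 3 libraries of 5XFAD Trem1+/- microglia, labelled as 5XFAD crossed with Trem1+/-. The label does not say what the changed Trem1 allele is. A second table, with a normalization of its own, holds young and aged microglia, 3 libraries each of wild type and Trem1-/- at both ages. The labels give the cells as primary brain microglia and the age of the 5XFAD table as adult, without months. They give no sex, no isolation method or sort, and they do not say whether each library is a different animal. The p-values therefore cover the spread between these libraries alone, which may be technical.

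Microglia are the resident macrophages of the brain. In the healthy brain they express a homeostatic set of surface receptors and transcription factors that depends on TGF-beta and CSF1 receptor signals. Around amyloid plaques they take on a disease-associated state, which lowers homeostatic genes and raises genes of lipid handling, lysosomal proteases, secreted factors and phagocytic receptors, in large part downstream of the receptor TREM2 and its signalling adaptor DAP12, the product of Tyrobp.

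The 6 libraries held 9264999 to 18698707 reads on genes. Values below are normalized counts, which are reads divided by a factor for the depth of each library, and 3 reads equal 2.26 to 4.36 normalized counts. Differences are 5XFAD minus adult wild type on the scale of log2(normalized count + 1), with the standard error and the Benjamini-Hochberg adjusted p of limma across all 17025 genes with a mean of at least 10, and a gene is called changed at an adjusted p under 0.05. On this scale the change of a gene with few reads is understated.

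The adult wild-type libraries stood apart from the other 18 libraries of the series in the makeup of their reads. Transcripts of the mitochondrial ribosomal RNA genes mt-Rnr1 and mt-Rnr2 took 1.99% to 2.32% of their reads, against 0.177% to 0.274% in 5XFAD, 0.216% to 0.243% in 5XFAD Trem1+/- and 0.110% to 0.198% in the 12 libraries of the aging table. Gm23935, a short RNA gene annotated as a miRNA at chr16:11144125-11144181 (GRCm38), took 2.75% to 3.34% of the reads in adult wild type, 0.0574% to 0.229% in 5XFAD, 0.0888% to 0.127% in 5XFAD Trem1+/- and 0.0463% to 0.294% in the aging table. Protein-coding genes took 88.9% to 89.6% of the reads in adult wild type, 91.9% to 93.8% in 5XFAD, 92.8% to 94.3% in 5XFAD Trem1+/- and 91.5% to 94.7% in the aging table. The mean log2 level of 3 gene lists was also lower in each adult wild-type library than in every other library, 12 of which belong to the separately normalized aging table. It was 9.47 to 9.74 for class I antigen presentation, 8.04 to 8.61 for lipid uptake, efflux and droplets and 3.69 to 4.48 for border macrophage markers, against 9.89 to 10.53, 9.24 to 9.64 and 4.70 to 6.64 in 5XFAD. All 3 control libraries shared this, so the makeup of the libraries and the genotype cannot be told apart. The median difference between 5XFAD and wild type was 0.25 for the eighth of protein-coding genes with the shortest summed exon length (90 to 2008 bases). It was -0.03 for the eighth with the longest, and 0.00 over all genes tested, coding or not. The 10 microglia-defining markers, among them Csf1r, Cx3cr1 and P2ry12, were high in every library, with summed normalized counts of 387910, 428100 and 417830 in wild type and 349390, 348940 and 322770 in 5XFAD.

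**Figure D1:**
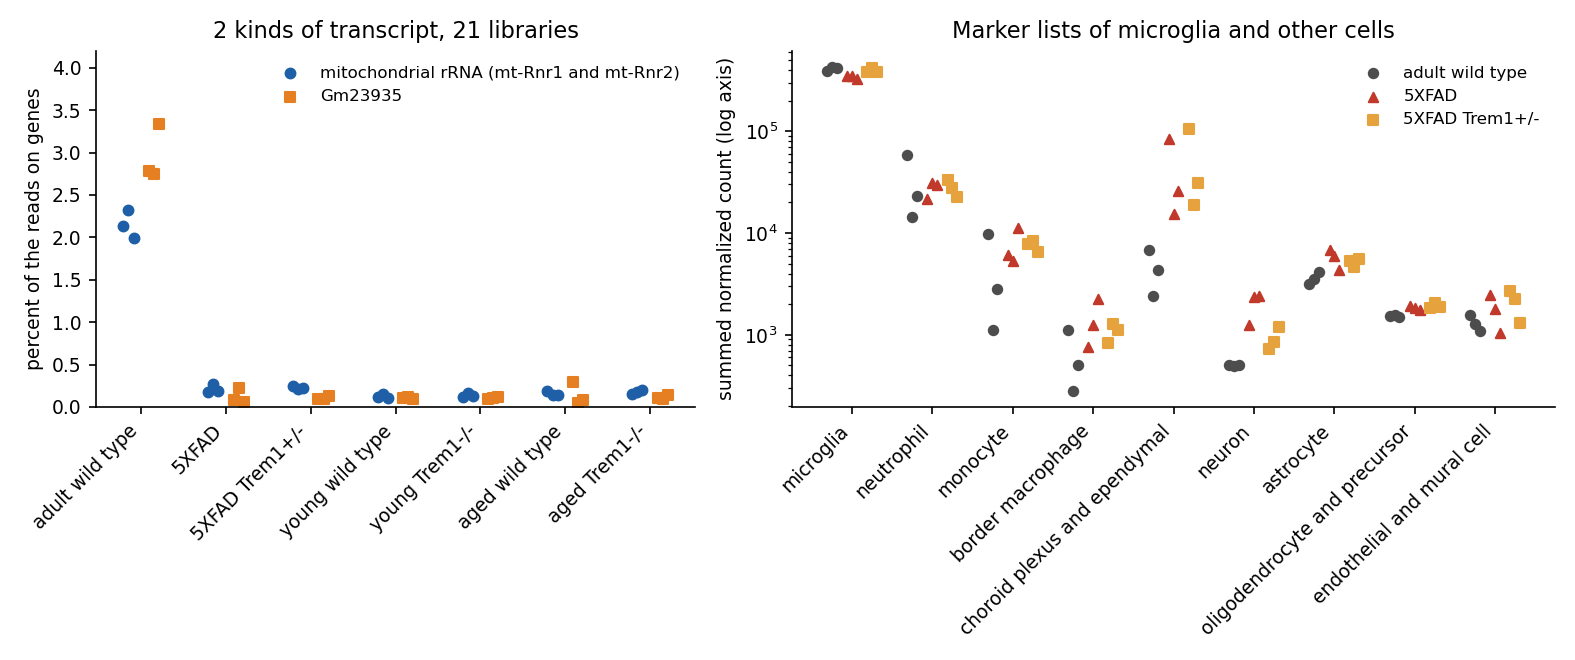
Left, percent of the reads on genes that fell on the 2 mitochondrial ribosomal RNA genes (circles) and on Gm23935 (squares) in each of the 21 libraries, by group. Right, summed normalized counts of marker lists on a log axis in each library of the 5XFAD table. The 3 adult wild-type libraries lie at 1.99% to 2.32% for the ribosomal RNA and 2.75% to 3.34% for Gm23935, above all other libraries, and the microglia-defining markers are the highest of the lists shown in each library.

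Trem1, the myeloid receptor that the series is about, was low in these cells, at 62.7, 0 and 30.2 in wild type and 13.7, 32 and 36.8 in 5XFAD. The groups overlapped, with a difference of 1.07 ± 1.23 (SE, adjusted p = 0.74). The positive sign of this difference rests on wild-type replicate 2, which held 0 reads. Reads counted for mouse App were at 6144, 6570 and 5866 in wild type and 8485, 6875 and 8135 in 5XFAD, and the groups did not overlap. The difference was 0.33 ± 0.12 (SE, adjusted p = 0.17). The transgenes are human sequences and the table lists mouse genes. Whether reads of the transgene were counted for mouse App was not tested. Thy1, a surface glycoprotein of neurons and T cells whose promoter drives the transgenes, was at 1.1, 0 and 0 in wild type and 60.2, 377 and 58.8 in 5XFAD, and at 26.1, 31.3 and 56.5 in 5XFAD Trem1+/-. The 3 wild-type libraries held 1 Thy1 read in all, and the ratio of pooled depth-scaled reads was 408, with an exact 95% interval of 72.7 to 16141 for counting error alone. The fitted difference for Thy1 was 6.44 ± 1.01 (SE, adjusted p = 0.0020), and it was 5.56 without 5XFAD replicate 2, and 6.89 without 5XFAD replicate 3.

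In 5XFAD microglia 275 genes were higher (1.62% of those tested) and 62 were lower (0.364%), 337 in all (1.98%). Of the 275 higher genes 211 differed by at least 2-fold, against 10 of the 62 lower genes, so that the rises were large and the falls mostly small. In all 337 the 3 libraries of one group lay outside the range of the other, which was so for 17.3% of all genes tested, 9.32% with 5XFAD higher and 8.01% with 5XFAD lower. This separation comes from the same values as the calls and is no further support for them. The wild-type mean was under 50 normalized counts for 100 of the 275 higher genes, and 40 had at least 1 wild-type library without a read. The number called depended on single libraries and on the variance model. Of the calls, 64 of the 275 rises and 7 of the 62 falls were called with each of the 6 libraries left out in turn. limma without the variance trend and robust option shared 23 of the 337 calls, Apoe, Cst7, Gpnmb, Itgax, Axl, Clec7a, Ch25h, Baiap2l2, Il1r1 and Thy1 among them. edgeR's quasi-likelihood test on the recovered reads shared 209 and DESeq2 shared 336.

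**Figure D2:**
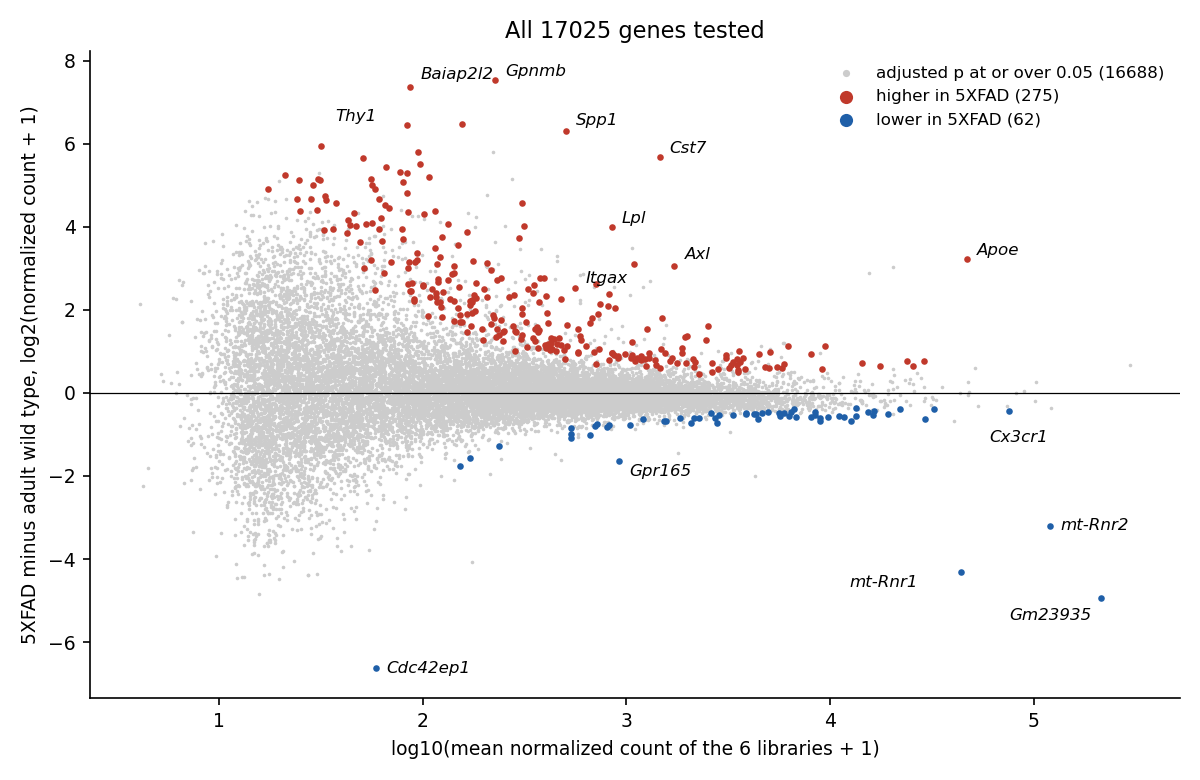
Difference between 5XFAD and adult wild type in log2(normalized count + 1) against log10 of the mean normalized count of the 6 libraries + 1, with 1 point per gene tested. The 275 genes called higher (red) reach a difference of 7.53 for Gpnmb, most of the 62 called lower (blue) lie within 1 of zero, and Cdc42ep1, Gm23935, mt-Rnr1 and mt-Rnr2 lie far below.

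Secreted products of disease-associated microglia made up many of the largest rises. Of 23 listed secreted factors, all tested, 14 were higher (60.9%) and 9 not called, with a median difference of 1.60, against 0.00 over all genes. For this and every list below, the shares over all genes tested were 1.62% higher and 0.364% lower. The count of 14 was 9 without 5XFAD replicate 1. The list was drawn up from published disease-associated genes, so its direction in a 5XFAD brain is not independent evidence. Lists share members. Of the called secreted factors, Apoe, Lpl, Cst7, Ctsb, Ctsl, Ctsz, Ccl3, Ccl4, Ccl6 and Lgals3bp are counted again in lists below. Cst7, which encodes cystatin F, an inhibitor of lysosomal cysteine proteases (ENSMUSG00000068129.5, chr2:150570415-150578944, plus strand, GRCm38), was at 70.4, 36.3 and 53.5 normalized counts in wild type and 2374, 4347 and 1852 in 5XFAD. The means were 53.4 ± 17 and 2858 ± 1316 (SD, n = 3), a ratio of 53.5, and the log2 difference was 5.67 ± 0.41 (SE, adjusted p = 0.00019). No 5XFAD library came near the wild-type range.

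Gpnmb, a transmembrane glycoprotein shed from lipid-loaded and lysosome-stressed macrophages (ENSMUSG00000029816.10, chr6:49036546-49070929, plus strand), was at 0, 0 and 12.8 in wild type and 410.3, 398 and 529.5 in 5XFAD. Its difference of 7.53 ± 0.79 (SE, adjusted p = 0.00018) had the largest size of the 337, and it was 6.90 without adult wild type replicate 1, and 8.79 without adult wild type replicate 3. Spp1, osteopontin, a secreted matrix and cytokine-like protein, was at 25.3, 2.34 and 9.8 and 482, 469.6 and 2028, a difference of 6.30 ± 0.82 (SE, adjusted p = 0.0088), with the highest value in 5XFAD replicate 3. Its difference was 5.52 without adult wild type replicate 2, and 7.01 without adult wild type replicate 1. Both genes were nearly silent in wild type and well above the floor of counting in every 5XFAD library.

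Apoe encodes the main lipid carrier of the brain and is the strongest common genetic risk locus for late-onset Alzheimer's disease (ENSMUSG00000002985.16, chr7:19696109-19699188, minus strand). It was at 10390, 6480 and 10794 in wild type and 98713, 75491 and 78872 in 5XFAD, a ratio of means of 9.15 and a difference of 3.22 ± 0.24 (SE, adjusted p = 0.00084). Csf1, a ligand of the CSF1 receptor on which microglia depend, was at 262, 432 and 348 and 1306, 1752 and 1186. The difference was 2.03 ± 0.22 (SE, adjusted p = 5.9e-05). Lgals3bp, a secreted scavenger-domain glycoprotein that binds galectins, rose by 1.27 ± 0.15 (SE, adjusted p = 0.00012), and Dkk2, a secreted Wnt modulator, was at 0, 0 and 4.52 in wild type and 43.8, 119 and 132 in 5XFAD. The difference was 5.66 ± 0.94 (SE, adjusted p = 0.0033), or 5.25 without adult wild type replicate 1, and 6.48 without adult wild type replicate 3. In each of these genes the 3 5XFAD libraries were above the 3 wild-type libraries.

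Among the receptors and adaptors of the disease-associated state 7 of 18 were higher (38.9%, against 1.62% of all genes tested). The 7 were Tyrobp, Clec7a, Axl, Itgax, Cd63, Cd34 and Ank, and 11 were not called, with a median of 0.82. The differences of all 18 were above 0. This list too was made of genes of that state, with earlier results of these data known. Its shared direction is therefore not independent evidence. Itgax, the CD11c integrin subunit (ENSMUSG00000030789.9, chr7:128129547-128150657, plus strand), was at 136, 168 and 198 in wild type and 926, 969.7 and 963 in 5XFAD, with means of 167 ± 30.5 and 953 ± 23.9 (SD, n = 3) and a difference of 2.52 ± 0.26 (SE, adjusted p = 5.9e-05). Axl, a TAM receptor for phosphatidylserine on dying cells (ENSMUSG00000002602.16, chr7:25757273-25788705, minus strand), was at 325, 248 and 559 and 3785, 3262 and 2142. The difference was 3.06 ± 0.29 (SE, adjusted p = 0.00061). Clec7a, the beta-glucan receptor dectin-1, was at 338, 178 and 280.4 and 1728, 1352 and 1033. The difference was 2.38 ± 0.22 (SE, adjusted p = 3.3e-05).

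Tyrobp itself was at 2510, 2130 and 2745 in wild type and 4457, 4911 and 3199 in 5XFAD. The difference was 0.75 ± 0.16 (SE, adjusted p = 0.022). Trem2, its partner receptor, was at 4211, 4851 and 7109 and 7643, 8475 and 6248, with overlapping groups and a difference of 0.49 ± 0.19 (SE, adjusted p = 0.25). Cd63, a tetraspanin of late endosomes and exosomes, was at 1030, 1008 and 1227 and 2864, 2307 and 3170. The difference was 1.35 ± 0.16 (SE, adjusted p = 0.00015). Cd34, a sialomucin better known from blood progenitors, rose by 0.55 ± 0.11 (SE, adjusted p = 0.014), and Ank, a membrane exporter of ATP and pyrophosphate, by 1.79 ± 0.29 (SE, adjusted p = 0.017). Cd9 (0.41 ± 0.23, adjusted p = 0.45), Cd68 (0.49 ± 0.20, adjusted p = 0.28) and Cadm1 (0.41 ± 0.15, adjusted p = 0.21) were not called. Tyrobp was not called without 5XFAD replicate 1 or 2 or wild-type replicate 1 or 2 (adjusted p up to 0.13). Ank was not called without 5XFAD replicate 1 or 2 or wild-type replicate 2 (adjusted p up to 0.081). Cd34 was not called without wild-type replicate 1 (adjusted p up to 0.053).

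**Figure D3:**
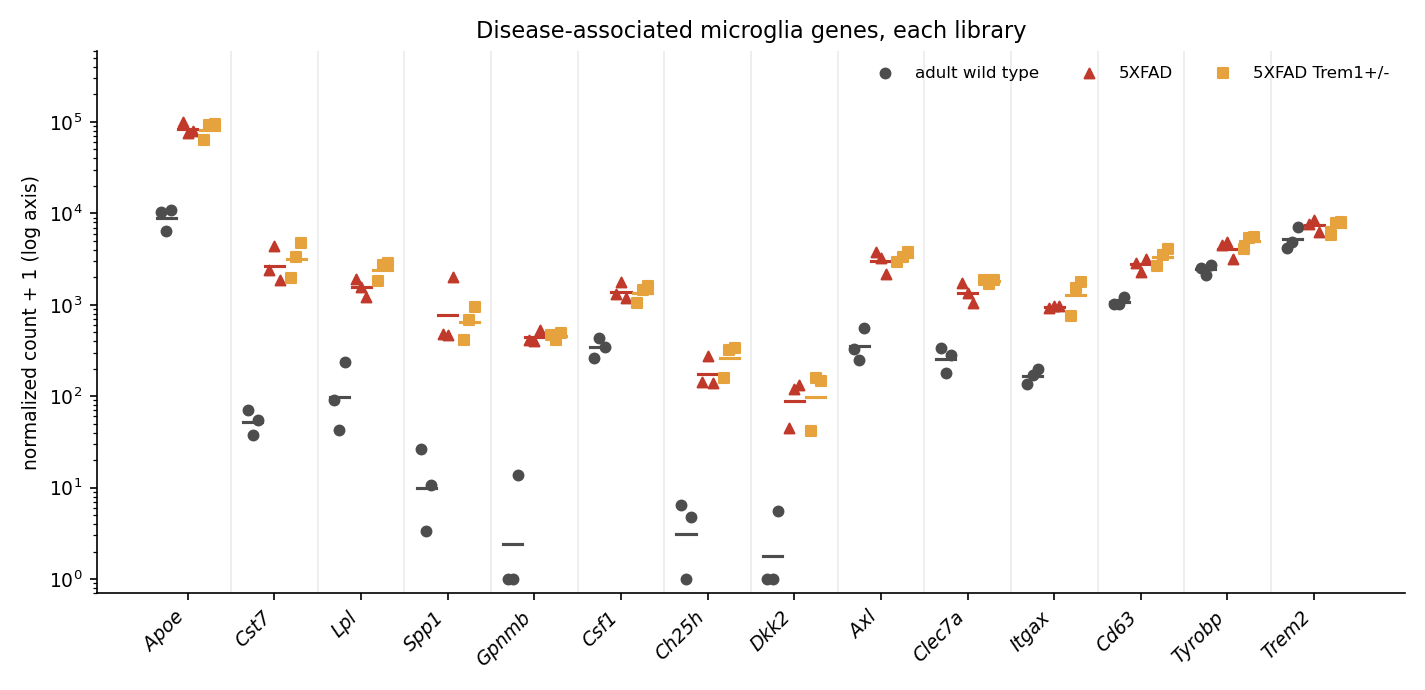
Normalized count + 1 on a log axis for 14 genes of the disease-associated state in each library of adult wild type (circles), 5XFAD (triangles) and 5XFAD Trem1+/- (squares), with the mean of the log values as a bar. The 5XFAD libraries lie above the wild-type libraries for every gene shown except Trem2, whose groups overlap.

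The promoters of some of these genes are shown as reference sequence, so that the letters upstream of strongly changed genes can be read beside the values. The 4 are the 250 bases before the RefSeq start of transcription (GRCm38.p6), with matches in capitals to 3 short motifs searched on both strands, with no overlap among the matches shown: CACGTG, the E-box bound by MITF, TFEB and TFE3, TGANTCA, the site of AP-1, and GGAAGT, a core bound by PU.1 and other ETS factors. A match was present in 6.035% of 27025 RefSeq promoters of this length for CACGTG, in 6.842% for TGANTCA and in 20.01% for GGAAGT. The promoters of Cst7, Itgax and Gpnmb are picked examples and do not represent the risen genes just described. Among the other secreted factors and receptors described above, Spp1 and Cd63 also held the ETS core. Apoe, Csf1, Lgals3bp, Dkk2, Axl, Clec7a, Cd34 and Ank held none of the 3 motifs. The promoter of Hif1a, described with the metabolic genes, is a picked example with the E-box.
Cst7, chr2:150570165-150570414, plus strand: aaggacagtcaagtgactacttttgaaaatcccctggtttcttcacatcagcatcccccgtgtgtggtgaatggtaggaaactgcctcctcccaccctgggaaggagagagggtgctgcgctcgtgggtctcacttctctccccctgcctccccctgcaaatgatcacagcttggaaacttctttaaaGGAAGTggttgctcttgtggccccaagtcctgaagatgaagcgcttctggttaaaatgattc
Itgax, chr7:128129300-128129549, plus strand: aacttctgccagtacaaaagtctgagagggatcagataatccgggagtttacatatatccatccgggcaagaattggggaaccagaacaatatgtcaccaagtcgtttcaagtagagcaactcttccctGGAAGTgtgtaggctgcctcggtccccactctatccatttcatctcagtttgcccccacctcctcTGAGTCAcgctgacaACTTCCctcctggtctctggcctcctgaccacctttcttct
Gpnmb, chr6:49036268-49036517, plus strand: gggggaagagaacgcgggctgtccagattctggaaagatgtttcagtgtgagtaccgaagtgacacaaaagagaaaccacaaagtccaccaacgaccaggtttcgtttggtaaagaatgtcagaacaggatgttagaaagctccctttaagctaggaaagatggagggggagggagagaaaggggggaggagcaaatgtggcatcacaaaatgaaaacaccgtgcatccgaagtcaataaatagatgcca
Hif1a, chr12:73907617-73907866, plus strand: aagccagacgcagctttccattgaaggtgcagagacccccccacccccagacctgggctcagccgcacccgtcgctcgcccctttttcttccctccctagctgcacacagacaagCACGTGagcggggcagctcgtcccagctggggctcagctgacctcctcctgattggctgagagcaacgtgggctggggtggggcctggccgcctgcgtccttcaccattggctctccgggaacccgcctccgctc
The Cst7 promoter holds the ETS core beginning 62 bases before the start. That of Itgax holds it at 121 bases and, on the other strand, at 41 bases, with an AP-1 site at 56 bases. The Hif1a window holds the E-box at 135 bases, and the GENCODE gene begins upstream of this window. None of the 3 motifs was found in these letters of Gpnmb. A match is a description of the letters and no evidence of binding. RefSeq promoters were matched for 209 of the 275 higher genes, under 80%, so no share over the called genes is given.

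Genes of lipid uptake, efflux and droplets were partly raised. Of 26 tested 6 were higher, among them Apoe, Lpl, Ch25h, Nceh1 and Pltp, and 20 were not called, with a median of 0.53. Apoe and Lpl are also among the called secreted factors. The count of 6 was 3 without 5XFAD replicate 1. Ch25h, which makes 25-hydroxycholesterol, was at 5.5, 0 and 3.77 in wild type and 140.4, 275 and 139 in 5XFAD. The difference was 5.81 ± 0.70 (SE, adjusted p = 0.00015), or 4.98 without adult wild type replicate 2, and 6.33 without adult wild type replicate 1. Lpl, lipoprotein lipase, was at 89.1, 42.2 and 233 and 1907, 1582 and 1225. The difference was 4.0 ± 0.58 (SE, adjusted p = 0.022), or 3.41 without adult wild type replicate 2, and 4.63 without adult wild type replicate 3. Nceh1, a neutral cholesterol ester hydrolase, was at 263, 375 and 414 and 889, 875 and 754. The difference was 1.28 ± 0.21 (SE, adjusted p = 0.0026). The groups did not overlap for any of these 3 genes.

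The phospholipid transfer protein Pltp differed by 2.51 ± 0.57 (SE, adjusted p = 0.040). Not called were the cholesterol exporter Abca1 (-0.25 ± 0.09, adjusted p = 0.22), the endocytic receptor Lrp1 (0.02 ± 0.11, adjusted p = 0.95), the ubiquitin ligase Mylip (-0.06 ± 0.10, adjusted p = 0.84) and the lysosomal cholesterol transporter Npc1 (-0.30 ± 0.16, adjusted p = 0.41). In cholesterol and fatty acid synthesis 2 of 28 genes were higher, with a median of 0.48. Acaca, acetyl-CoA carboxylase, was at 253, 328 and 325 and 829, 1162 and 1453, a difference of 1.90 ± 0.22 (SE, adjusted p = 0.00012), and the desaturase Scd1 was at 4.4, 27 and 26.4 and 324, 219.5 and 82.5. The difference was 3.50 ± 0.67 (SE, adjusted p = 0.012), or 2.71 without adult wild type replicate 1, and 4.06 without 5XFAD replicate 3. Lpl was not called without 5XFAD replicate 1, 2 or 3 or wild-type replicate 1 (adjusted p up to 0.079). Pltp was not called without 5XFAD replicate 1 or 3 or wild-type replicate 2 or 3 (adjusted p up to 0.20). Scd1 was not called without 5XFAD replicate 1 or 2 (adjusted p up to 0.071).

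Of 16 cathepsins, legumain and cystatins tested 4 were higher, Cst7, Ctsb, Ctsl and Ctsz, with a median of 0.26 (0.48 without adult wild type replicate 1). All 4 are also among the called secreted factors. The count of 4 was 2 without 5XFAD replicate 2 or adult wild type replicate 2. The cysteine protease Ctsl was at 5696, 5174 and 5639 in wild type and 9379, 11048 and 11242 in 5XFAD, a difference of 0.94 ± 0.15 (SE, adjusted p = 0.0033). Ctsb was at 19472, 20032 and 24251 and 35213, 38385 and 35210, a difference of 0.78 ± 0.14 (SE, adjusted p = 0.012), and Ctsz differed by 0.71 ± 0.16 (SE, adjusted p = 0.040). Each was under 2-fold higher, beside the far larger rise of Cst7 in the same list. Ctsd (0.60 ± 0.19, adjusted p = 0.18), Ctss (0.26 ± 0.10, adjusted p = 0.22) and Lgmn (0.01 ± 0.08, adjusted p = 0.97) were not called. The hydrolases and membrane proteins of the lysosome moved little, with 2 of 33 higher (6.06%, against 1.62% of all genes tested) and a median of 0.17. The 2 were the beta-glucuronidase Gusb (0.74 ± 0.17, adjusted p = 0.043) and the acid alpha-glucosidase Gaa (0.62 ± 0.16, adjusted p = 0.047). Ctsb was not called without 5XFAD replicate 2 or wild-type replicate 2 (adjusted p up to 0.061). Ctsz and Gusb were lost without any 1 of the 6 libraries, at adjusted p values up to 0.17 and 0.19. Gaa was not called without 5XFAD replicate 1, 2 or 3 or wild-type replicate 1 or 2 (adjusted p up to 0.19).

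Chemokines split. Of 18 chemokine and chemokine receptor genes tested, the inflammatory chemokines Ccl3 and Ccl4 and the myeloid chemokine Ccl6 were higher, the fractalkine receptor Cx3cr1 was lower and 14 were not called, with a median of 0.49 (0.13 without adult wild type replicate 1). Ccl3, Ccl4 and Ccl6 are also among the called secreted factors, and Cx3cr1 among the called homeostatic genes. The 4 calls became 0 without adult wild type replicate 2, 1 without 5XFAD replicate 1 and 2 without adult wild type replicate 1. Ccl3 was at 40.7, 123 and 144 in wild type and 482, 1125 and 436 in 5XFAD. The difference was 2.77 ± 0.50 (SE, adjusted p = 0.022). Ccl4 was at 33, 86.7 and 115 and 259, 372 and 216, a difference of 1.97 ± 0.44 (SE, adjusted p = 0.027), and Ccl6 at 1371, 888 and 1412 and 3259, 5544 and 2649. The difference was 1.60 ± 0.32 (SE, adjusted p = 0.048). For all 3 the highest library was 5XFAD replicate 2. Ccl3 was not called without 5XFAD replicate 1 or wild-type replicate 2 (adjusted p up to 0.069). Ccl4 was not called without 5XFAD replicate 1 or 2 or wild-type replicate 1 or 2 (adjusted p up to 0.097). Ccl6 was not called without 5XFAD replicate 1 or wild-type replicate 1, 2 or 3 (adjusted p up to 0.12).

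Among 24 inflammatory cytokine and NF-kB feedback genes 1 was higher (4.17%, against 1.62% of all genes tested), the interleukin-1 receptor Il1r1. Il1r1 was at 39.6, 27 and 48.2 in wild type and 223, 166 and 185 in 5XFAD. The difference was 2.32 ± 0.42 (SE, adjusted p = 0.0083). Nfkb1 (-0.01 ± 0.12, adjusted p = 0.97), Cd14 (0.01 ± 0.16, adjusted p = 0.98) and Icam1 (-0.03 ± 0.13, adjusted p = 0.94) were not called. The median of the list was 0.23 (-0.02 without adult wild type replicate 1).

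Type I interferon response genes had a median of 0.77, with 31 of 35 above 0 and 4 called, all higher (11.4%, against 1.62% of all genes tested). These were Ifit3, an antiviral RNA-binding protein, at 66, 72.6 and 118 in wild type and 317, 254 and 208 in 5XFAD (1.62 ± 0.34, adjusted p = 0.019), the DNA sensor family members Ifi204 (2.60 ± 0.56, adjusted p = 0.049) and Ifi207 (1.72 ± 0.42, adjusted p = 0.041), and Lgals3bp. Reads of Ifi204 and Ifi207 may be shared with their near-identical neighbours, as may those of the class I genes below. In the class I antigen presentation list 2 of 19 were higher, H2-K1 at 2032, 1778 and 2494 and 4265, 5112 and 2784 (0.92 ± 0.20, adjusted p = 0.041) and H2-Q6 (2.21 ± 0.54, adjusted p = 0.045), while B2m was at 0.47 ± 0.14 (adjusted p = 0.095). The class II and co-stimulation genes had 0 of 13 called by limma, 2 at an unadjusted p under 0.05, 0 by edgeR and 1 by DESeq2, with a median of 0.72 (0.13 without adult wild type replicate 2), and the invariant chain Cd74 was at 801, 518 and 908 and 3576, 1426 and 2196. The difference was 1.63 ± 0.64 (SE, adjusted p = 0.31). The interferon count of 4 was 1 without 5XFAD replicate 1 and 2 without 5XFAD replicate 2 or adult wild type replicate 2. The class I count of 2 was 0 without 5XFAD replicate 1 or 5XFAD replicate 2 or adult wild type replicate 1, 1 without adult wild type replicate 2 and 4 without 5XFAD replicate 3 or adult wild type replicate 3. The difference of Ifi204 was 1.83 without adult wild type replicate 2, and 3.04 without adult wild type replicate 3. Ifi204 was not called without 5XFAD replicate 1, 2 or 3 or wild-type replicate 1 (adjusted p up to 0.13). Ifi207 was not called without 5XFAD replicate 1, 2 or 3 or wild-type replicate 2 or 3 (adjusted p up to 0.18). Ifit3 was not called without 5XFAD replicate 1 or wild-type replicate 1 or 2 (adjusted p up to 0.086). H2-K1 was not called without 5XFAD replicate 1 or 2 or wild-type replicate 1 or 2 (adjusted p up to 0.18). H2-Q6 was not called without 5XFAD replicate 1 or 2 or wild-type replicate 1, 2 or 3 (adjusted p up to 0.17).

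Few phagocytic receptors moved apart from those already named. The share called higher was 6.67% for complement genes and 16.7% for Fc gamma receptors. It was 5.88% for scavenger and uptake receptors and 7.69% for tetraspanins, against 1.62% of all genes tested. Each of these list shares rests on 1 called gene. Of 15 complement genes 1 was called, Itgax, and the C1q genes C1qa (0.35 ± 0.15, adjusted p = 0.29), C1qb (0.32 ± 0.16, adjusted p = 0.37) and C1qc (0.23 ± 0.11, adjusted p = 0.35) were not. Of 6 Fc gamma receptor genes the shared signalling chain Fcer1g was higher, at 2281, 2280 and 3618 in wild type and 4554, 4492 and 5253 in 5XFAD. Its difference was 0.84 ± 0.16 (SE, adjusted p = 0.014), and it was not called without 5XFAD replicate 3 or wild-type replicate 1 or 2 (adjusted p up to 0.075). Of 17 scavenger and apoptotic-cell uptake receptors Axl was higher, and its relative Mertk was at 14275, 15807 and 16743 and 11189, 14228 and 14314. The difference was -0.24 ± 0.11 (SE, adjusted p = 0.29). Among 13 tetraspanins Cd63 was higher, while Cd81 (0.08 ± 0.11, adjusted p = 0.80), Cd53 (-0.41 ± 0.15, adjusted p = 0.18) and Cd37 (-0.16 ± 0.12, adjusted p = 0.55) were not called. The median was 0.33 for the complement genes and 0.37 (0.20 without 5XFAD replicate 3) for the Fc gamma receptors. It was 0.35 (0.05 without 5XFAD replicate 1) for the scavenger and uptake receptors and 0.07 (-0.03 without adult wild type replicate 2 and 0.15 without adult wild type replicate 3) for the tetraspanins.

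In the amyloid precursor family and its processing 3 of 16 genes were higher, Thy1, listed there for the promoter of the transgenes, and both homologues of App. Aplp2 was at 2632, 2102 and 2368 in wild type and 5230, 4443 and 4676 in 5XFAD. The difference was 1.02 ± 0.12 (SE, adjusted p = 0.00012). Aplp1 was at 107, 93.7 and 63.3 and 1138, 487 and 365, a difference of 2.76 ± 0.56 (SE, adjusted p = 0.042), with the highest library in 5XFAD replicate 1. Aplp1 was not called without 5XFAD replicate 1 or 2 or wild-type replicate 1, 2 or 3 (adjusted p up to 0.17). The alpha-secretase Adam10 (-0.21 ± 0.10, adjusted p = 0.33) and Itm2b (-0.04 ± 0.10, adjusted p = 0.89) were not called. Of 23 Alzheimer risk genes that microglia express, Apoe was higher and the scaffold gene Cass4 lower, at 658, 1246 and 773 in wild type and 455, 471 and 364 in 5XFAD. The difference of Cass4 was -1.01 ± 0.25 (SE, adjusted p = 0.045), not called without 5XFAD replicate 1, 2 or 3 or wild-type replicate 2 or 3 (adjusted p up to 0.26). Inpp5d (-0.24 ± 0.09, adjusted p = 0.23), Picalm (-0.41 ± 0.11, adjusted p = 0.056) and Bin1 (-0.07 ± 0.11, adjusted p = 0.81) were not called, and the median was -0.14 (-0.04 without adult wild type replicate 3). In the 22 genes of the TREM locus and DAP12 signalling Tyrobp was higher and Siglech lower, with a median of -0.03 (-0.10 without adult wild type replicate 3 and 0.03 without 5XFAD replicate 1), and the kinase Syk was at -0.32 ± 0.11 (adjusted p = 0.19). The 2 calls became 0 without adult wild type replicate 1 and 1 without 5XFAD replicate 1 or adult wild type replicate 2.

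Homeostatic genes were lower by small amounts. Of 28 tested 5 were lower (17.9%, against 0.364% of all genes tested), P2ry13, Cx3cr1, Siglech, Tgfbr1 and Entpd1. Fcrls was the 1 higher (3.57%, against 1.62%), and 22 were not called, with a median of -0.29 and 23 below 0. In bulk RNA fewer cells of a kind and less RNA per cell cannot be told apart. Cx3cr1, the receptor for the neuronal chemokine fractalkine, was at 80931, 92747 and 86725 in wild type and 66922, 68750 and 58369 in 5XFAD. The difference was -0.43 ± 0.08 (SE, adjusted p = 0.014). Siglech, a sialic acid receptor that pairs with DAP12, was at 18832, 16923 and 17794 and 14189, 12463 and 12135. The difference was -0.47 ± 0.09 (SE, adjusted p = 0.015). In both, the highest 5XFAD library was below the lowest wild-type library.

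The ectonucleotidase Entpd1, which is CD39, was at 18486, 18964 and 20101 in wild type and 14192, 13460 and 12185 in 5XFAD. The difference was -0.53 ± 0.10 (SE, adjusted p = 0.012). The ADP receptor P2ry13 was at 13124, 15367 and 13486 and 9660, 11471 and 7375. The difference was -0.58 ± 0.13 (SE, adjusted p = 0.034). P2ry12, the ADP receptor that guides process movement toward injury, was at 47046, 52544 and 48318 and 32780, 39838 and 22251, a difference of -0.68 ± 0.21 (SE, adjusted p = 0.17), so that its groups did not overlap and the test was not passed. The Fc receptor-like gene Fcrls went the other way, at 12651, 13412 and 14769 and 19511, 19188 and 26070. The difference was 0.65 ± 0.13 (SE, adjusted p = 0.015). Csf1r (-0.21 ± 0.08, adjusted p = 0.23) was not called.

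Microglial identity factors and the TGF-beta pathway had 2 genes higher, 2 lower and 20 not called. The count of 4 was 1 without 5XFAD replicate 3 or adult wild type replicate 1 or adult wild type replicate 2 and 2 without adult wild type replicate 3. The TGF-beta receptor Tgfbr1 was at 33499, 38153 and 34302 in wild type and 24899, 26650 and 18075 in 5XFAD, a difference of -0.62 ± 0.14 (SE, adjusted p = 0.035), and the transcription factor Maf at 10461, 11186 and 10538 and 7555, 7931 and 5802. The difference was -0.61 ± 0.13 (SE, adjusted p = 0.019). Both were lowest in 5XFAD replicate 3. Bhlhe40, a basic helix-loop-helix transcriptional repressor, was at 30.8, 30.5 and 12.8 and 269.9, 180.3 and 175, a difference of 3.10 ± 0.47 (SE, adjusted p = 0.0013), and Egr1, an immediate early factor, rose by 1.52 ± 0.36 (SE, adjusted p = 0.045). Sall1 (-0.50 ± 0.13, adjusted p = 0.070) and Mef2a (-0.38 ± 0.11, adjusted p = 0.090) were not called. P2ry13 was not called without 5XFAD replicate 1 or 3 or wild-type replicate 1, 2 or 3 (adjusted p up to 0.18). Tgfbr1 was not called without 5XFAD replicate 1 or 3 or wild-type replicate 1, 2 or 3 (adjusted p up to 0.16). Maf was not called without 5XFAD replicate 3 or wild-type replicate 1 or 2 (adjusted p up to 0.10). Egr1 was not called without 5XFAD replicate 2 or 3 or wild-type replicate 1, 2 or 3 (adjusted p up to 0.14).

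**Figure D4:**
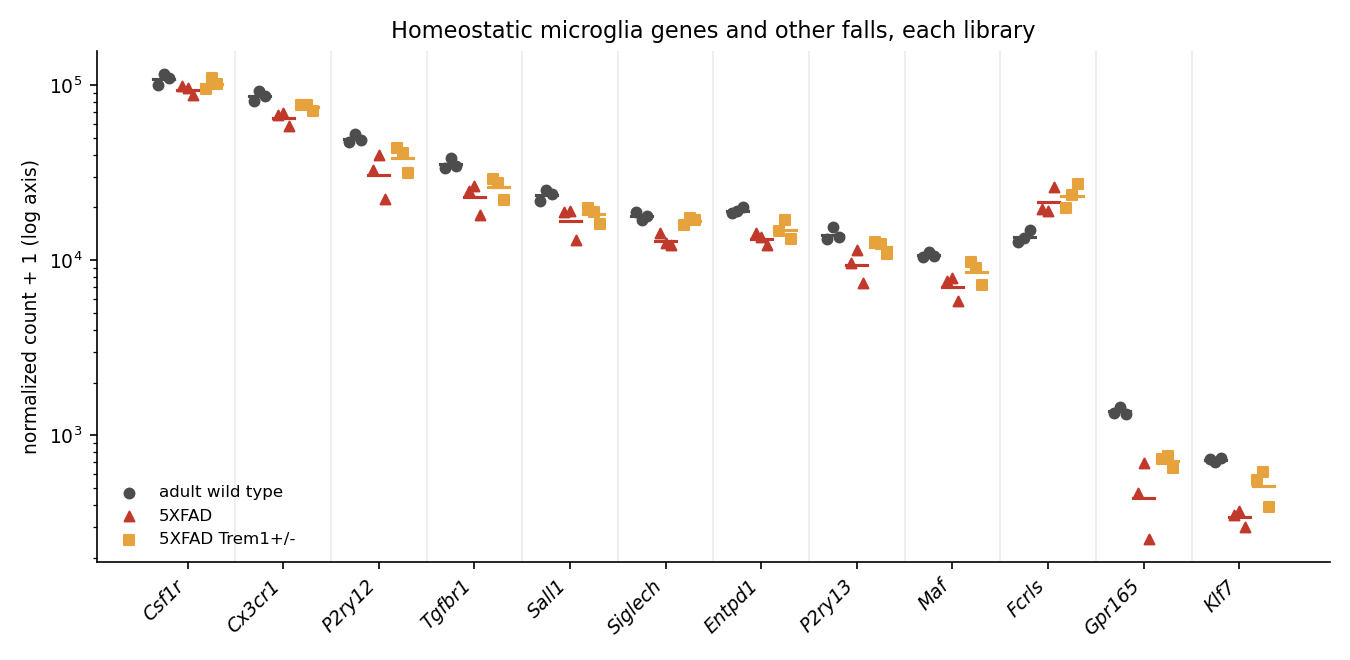
Normalized count + 1 on a log axis for homeostatic genes and 2 other falls in each library of adult wild type (circles), 5XFAD (triangles) and 5XFAD Trem1+/- (squares), with the mean of the log values as a bar. The 5XFAD libraries lie below the wild-type libraries for each gene shown except Fcrls, which lies above, and the shifts are small beside those of the risen genes.

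The homeostatic count of 6 was 2 without adult wild type replicate 1 or adult wild type replicate 2 and 10 without 5XFAD replicate 2. Cx3cr1 was not called without wild-type replicate 2 (adjusted p up to 0.090). Siglech was not called without wild-type replicate 1 (adjusted p up to 0.067). Fcrls was not called without wild-type replicate 1 or 2 (adjusted p up to 0.072).

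The 10 largest falls with a mean of at least 50 in the higher group were those of Cdc42ep1, Gm23935, mt-Rnr1, mt-Rnr2, Gpc2, Gpr165, Zfp354c, Dpy30, Klf7 and Cass4. Gpr165, an orphan G protein-coupled receptor, was at 1338, 1455 and 1316 in wild type and 466, 696 and 256 in 5XFAD. The difference was -1.65 ± 0.27 (SE, adjusted p = 0.0056). Klf7, a Krüppel-like transcription factor, was at 728, 702 and 745 and 349, 371 and 299. The difference was -1.10 ± 0.21 (SE, adjusted p = 0.012). Cdc42ep1, an effector of the small GTPase CDC42, was at 123, 182 and 42.2 in wild type and had 0 reads in all 3 5XFAD libraries, which is at least 36.3-fold lower with 3 reads per library as the floor. In 5XFAD Trem1+/- it was at 133, 45.3 and 20.1. The proteoglycan gene Gpc2 (-1.76 ± 0.43, adjusted p = 0.040), the zinc finger gene Zfp354c (-1.56 ± 0.38, adjusted p = 0.038) and Dpy30, a subunit of histone H3K4 methyltransferases (-1.29 ± 0.32, adjusted p = 0.042), were lower as well. Dpy30 was not called without 5XFAD replicate 2 or 3 or wild-type replicate 2 or 3 (adjusted p up to 0.19). Zfp354c was not called without 5XFAD replicate 1, 2 or 3 or wild-type replicate 1 or 3 (adjusted p up to 0.14). Gpc2 was not called without 5XFAD replicate 1 or 3 or wild-type replicate 2 or 3 (adjusted p up to 0.16).

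The mitochondrial ribosomal RNA transcripts were among the strongest falls. mt-Rnr2 was at 210670, 236750 and 205330 in wild type and 21187, 26355 and 23169 in 5XFAD (-3.21 ± 0.10, adjusted p = 6.1e-14), and mt-Rnr1 at 82302, 90752 and 74847 and 2615, 10530 and 2526 (-4.32 ± 0.57, adjusted p = 0.023). Gm23935 was at 381400, 388220 and 470520 and 10449, 30844 and 7655 (-4.93 ± 0.51, adjusted p = 0.012). For all 3 the groups were far apart, as the shares of reads above show. Without 5XFAD replicate 2 the differences were -5.00 for mt-Rnr1 and -5.52 for Gm23935. Gm23935 was not called without 5XFAD replicate 1 (adjusted p up to 0.051), and mt-Rnr1 without 5XFAD replicate 1 or 3 or wild-type replicate 1, 2 or 3 (adjusted p up to 0.096). The 13 protein-coding genes of the mitochondrial genome went the other way, with all 13 above 0, a median of 0.56 and 2 called, the complex I subunits mt-Nd1 (0.57 ± 0.12, adjusted p = 0.015) and mt-Nd5 (0.65 ± 0.14, adjusted p = 0.035). Their count was 0 without 5XFAD replicate 3 or adult wild type replicate 1 or adult wild type replicate 3, 1 without 5XFAD replicate 1 or 5XFAD replicate 2 and 5 without adult wild type replicate 2, and it was 0 with the trend on exon length removed. Without 5XFAD replicate 3 or wild-type replicate 1 or 3 (adjusted p up to 0.057) mt-Nd1 was not called, nor mt-Nd5 without 5XFAD replicate 1, 2 or 3 or wild-type replicate 1 or 3 (adjusted p up to 0.11).

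Other large rises lay outside the classical disease-associated lists. Baiap2l2, a membrane-bending adaptor of the BAR domain family, had 0 reads in the 3 wild-type libraries and was at 126, 254 and 134 in 5XFAD, at least 56.7-fold higher with 3 reads per library as the floor. Lgi2, a secreted leucine-rich repeat protein known from synapses, was at 0, 1.17 and 3.02 and 258, 638 and 35.1. The difference was 6.46 ± 0.88 (SE, adjusted p = 0.0011), or 5.55 without 5XFAD replicate 2, and 7.63 without 5XFAD replicate 3. Mamdc2, a secreted MAM domain proteoglycan, was at 0, 5.86 and 6.03 and 316, 161 and 89.9. The difference was 5.52 ± 0.78 (SE, adjusted p = 0.00069), or 4.59 without adult wild type replicate 1, and 6.0 without adult wild type replicate 3. Arc, an immediate early gene of neurons, had 0 reads in wild type and was at 67.5, 50.9 and 65.4 in 5XFAD, at least 20.2-fold higher, against 2.09, 4.12 and 20.1 in 5XFAD Trem1+/-. Arc was not called without 5XFAD replicate 1, 2 or 3 or wild-type replicate 2 (adjusted p up to 0.10).

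Glycolytic genes were raised in part. Of 26 genes of glycolysis, glucose transport and hypoxia 6 were higher, Aldoa, Tpi1, Pgk1, Pkm, Ldha and Hif1a, 22 were above 0 and the median was 0.46. The count was 3 without adult wild type replicate 2. Pkm, pyruvate kinase, was at 3963, 2990 and 3264 in wild type and 6790, 6474 and 6862 in 5XFAD. The difference was 0.99 ± 0.12 (SE, adjusted p = 0.00015). Tpi1, triose phosphate isomerase, was at 389.5, 279 and 318 and 816, 885 and 841. The difference was 1.38 ± 0.19 (SE, adjusted p = 0.00069). Hif1a, the oxygen-regulated transcription factor subunit whose promoter is shown above (ENSMUSG00000021109.13, chr12:73901375-73947530, plus strand), was at 2076, 2313 and 2234 and 3982, 4093 and 3765. The difference was 0.84 ± 0.13 (SE, adjusted p = 0.0020). The groups did not overlap for any of the 3. Hk2 (-0.13 ± 0.14, adjusted p = 0.70) and the fructose transporter Slc2a5 (-0.44 ± 0.27, adjusted p = 0.49) were not called.

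Aldoa was not called without 5XFAD replicate 1 or 2 or wild-type replicate 2 (adjusted p up to 0.13). Pgk1 was not called without 5XFAD replicate 1 or 2 or wild-type replicate 2 (adjusted p up to 0.12). Ldha was not called without 5XFAD replicate 1 or 3 or wild-type replicate 1 or 2 (adjusted p up to 0.14). Of 38 nuclear-encoded respiratory chain genes 5 were higher, Uqcrq, Cox4i1, Cox5b, Cox6a1 and Atp5b, with differences of 0.61 to 1.33 and a list median of 0.48 (0.74 without 5XFAD replicate 3). The count was 1 without 5XFAD replicate 1 or adult wild type replicate 2, 2 without adult wild type replicate 1 and 3 without 5XFAD replicate 2. In the tricarboxylic acid cycle 1 of 23 was higher, Sdhc (1.04 ± 0.26, adjusted p = 0.049), with a median of 0.13 (0.08 without 5XFAD replicate 1 and 0.22 without 5XFAD replicate 2), and it was not called without any 1 of the 6 libraries. The pentose phosphate pathway had 0 of 10 called by limma, 1 at an unadjusted p under 0.05, 0 by edgeR and 0 by DESeq2, with a median of 0.36 (0.16 without adult wild type replicate 2). The ferritin heavy chain Fth1 was the 1 of 12 iron genes called, at 5468, 5521 and 6776 and 11104, 14431 and 13109, a difference of 1.12 ± 0.14 (SE, adjusted p = 0.00067), and the iron exporter Slc40a1 was at -0.59 ± 0.18 (adjusted p = 0.12).

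Cytosolic ribosomal proteins were the list with the most members called and also the largest list. The share called higher was 27.6%, against 1.62% of all genes tested. It was below the 60.9% of the secreted factors and the 38.9% of the disease-associated receptors and adaptors. Of 76 tested 21 were higher and 55 not called, 74 were above 0 and the median was 0.82. Rpsa was at 3732, 3136 and 5021 in wild type and 8694, 7954 and 8841 in 5XFAD, a difference of 1.13 ± 0.19 (SE, adjusted p = 0.013). Rplp0 was at 3073, 2331 and 3891 and 5397, 6686 and 5535, a difference of 0.95 ± 0.18 (SE, adjusted p = 0.017), and Rps18 at 348, 202 and 390.5 and 945, 1356 and 714. The difference was 1.68 ± 0.28 (SE, adjusted p = 0.0059). The mean log2 level of the list was 9.25 to 9.95 in the wild-type libraries, 10.17 to 10.55 in 5XFAD and 10.18 to 10.76 in 5XFAD Trem1+/-. In the aging table, which was normalized separately, it was 9.98 to 10.16 in young wild type and 10.03 to 10.65 in aged wild type. The count was 6 without 5XFAD replicate 1 or adult wild type replicate 2, 11 without adult wild type replicate 1 and 37 without adult wild type replicate 3, and it was 20 with the trend on exon length removed. Rpsa was not called without 5XFAD replicate 1 or 3 (adjusted p up to 0.055). Rplp0 was not called without 5XFAD replicate 2 (adjusted p up to 0.073). These genes are short and have many pseudogene copies, and the part of the makeup of the wild-type libraries in this result was not tested.

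The cell cycle list had 0 of 32 called by limma, 3 at an unadjusted p under 0.05, 0 by edgeR and 3 by DESeq2, with a median of 0.80 (0.12 without 5XFAD replicate 3 and 1.26 without 5XFAD replicate 1). Mki67 was at 1582, 859 and 949.9 in wild type and 769.6, 872 and 7312 in 5XFAD. The difference was 0.64 ± 0.95 (SE, adjusted p = 0.81). In 30 of the 32 genes 5XFAD replicate 3 was the highest of the 6 libraries, and the mean log2 level of the list was 8.85 there, 6.71 and 7.13 in the other 5XFAD libraries and 6.42 to 7.19 in wild type. Of 22 immediate early genes, which handling of cells can induce, Egr1 and Ier2 (1.47 ± 0.31, adjusted p = 0.019) were higher, and Jun was at 0.02 ± 0.22 (adjusted p = 0.98), with a median of 0.04 (-0.07 without adult wild type replicate 2 and 0.33 without 5XFAD replicate 1). Heat shock and chaperone genes had 0 of 17 called by limma, 3 at an unadjusted p under 0.05, 0 by edgeR and 0 by DESeq2, with a median of 0.15 (-0.01 without 5XFAD replicate 1 and 0.47 without 5XFAD replicate 2). Ier2 was not called without 5XFAD replicate 2 or 3 or wild-type replicate 2 (adjusted p up to 0.079).

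Markers of other brain cells had median differences above 0, with few members called. The choroid plexus and ependymal markers summed to 6871, 2386 and 4318 in wild type and 83044, 15213 and 25815 in 5XFAD, with 0 of 7 called by limma, 5 at an unadjusted p under 0.05, 0 by edgeR and 4 by DESeq2, and a median of 2.56. Ttr, the transthyretin that choroid plexus secretes, was at 5782, 1904 and 3778 and 74401, 13288 and 23182. The difference was 3.04 ± 0.92 (SE, adjusted p = 0.21). Astrocyte markers summed to 3180, 3512 and 4141 and 6776, 5945 and 4354, with a median of 2.15 (1.4 without 5XFAD replicate 1). Of 9 astrocyte markers 2 were higher, the intermediate filament Gfap at 7.7, 15.2 and 92.7 and 671, 663 and 391, a difference of 4.56 ± 0.74 (SE, adjusted p = 0.017), and the aldolase Aldoc (2.77 ± 0.55, adjusted p = 0.021). The difference of Gfap was 3.84 without adult wild type replicate 1, and 5.56 without adult wild type replicate 3, and Gfap was not called without 5XFAD replicate 1 or 2 or wild-type replicate 2 (adjusted p up to 0.11). The difference of Aldoc was 1.94 without adult wild type replicate 1, and 3.24 without adult wild type replicate 3, and Aldoc was not called without 5XFAD replicate 1 or 2 (adjusted p up to 0.083).

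Neuron markers summed to 502, 491 and 508 in wild type and 1239, 2341 and 2428 in 5XFAD, with a median of 2.09 and 1 of 12 higher, the kinase Camk2a at 124, 172 and 97.2 and 575, 849 and 403. The difference was 2.18 ± 0.36 (SE, adjusted p = 0.0049). Of 8 oligodendrocyte and precursor markers Cspg4, the NG2 proteoglycan of precursors and pericytes, was higher, at 2.2, 0 and 22.6 and 145, 88.7 and 219. The difference was 5.07 ± 0.92 (SE, adjusted p = 0.0094), or 4.03 without adult wild type replicate 2, and 6.31 without adult wild type replicate 3. Mog and Opalin, of the same list, had 0 reads in all 6 libraries. Endothelial and mural markers had 0 of 9 called by limma, 2 at an unadjusted p under 0.05, 0 by edgeR and 1 by DESeq2, and a median of 1.27 (0.49 without adult wild type replicate 3). These differences stand beside the rises of Thy1, Arc, Apoe, Aplp1 and Lgi2, which such cells also express, and the part of other cells in those rises was not tested. Whether the transgenes, driven by the Thy1 promoter, gave some of the Thy1 reads was not tested either.

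Markers of blood cells and border macrophages were not called by limma. Neutrophil markers summed to 57793, 14307 and 23355 in wild type and 21746, 31231 and 29518 in 5XFAD, highest in wild-type replicate 1, with 0 of 15 called by limma, 0 at an unadjusted p under 0.05, 0 by edgeR and 0 by DESeq2, and a median of 0.31 (-0.73 without adult wild type replicate 2 and 1.18 without adult wild type replicate 1). Monocyte markers summed to 9819, 1118 and 2792 and 6118, 5311 and 11326, with 0 of 12 called by limma, 1 at an unadjusted p under 0.05, 0 by edgeR and 1 by DESeq2, and a median of 0.86 (-0.07 without adult wild type replicate 2 and 1.91 without adult wild type replicate 1). Border macrophage markers had 0 of 8 called by limma, 4 at an unadjusted p under 0.05, 0 by edgeR and 1 by DESeq2, and a median of 1.25 (0.82 without 5XFAD replicate 3 and 2.04 without 5XFAD replicate 1), with Mrc1 at 231, 66.8 and 238 and 302, 209 and 385. B cell markers had 0 of 4 called by limma, 0 at an unadjusted p under 0.05, 0 by edgeR and 0 by DESeq2, and a median of -0.46. Erythrocyte markers had 0 of 6 called by limma, 1 at an unadjusted p under 0.05, 0 by edgeR and 0 by DESeq2, and a median of -0.81 (-1.91 without 5XFAD replicate 1 and 0.56 without 5XFAD replicate 3). Of 14 T and NK cell markers 1 passed the filter on low values and was not called by limma or edgeR, though DESeq2 called it. The groups overlapped in the sums of neutrophil and monocyte markers.

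**Figure D5:**
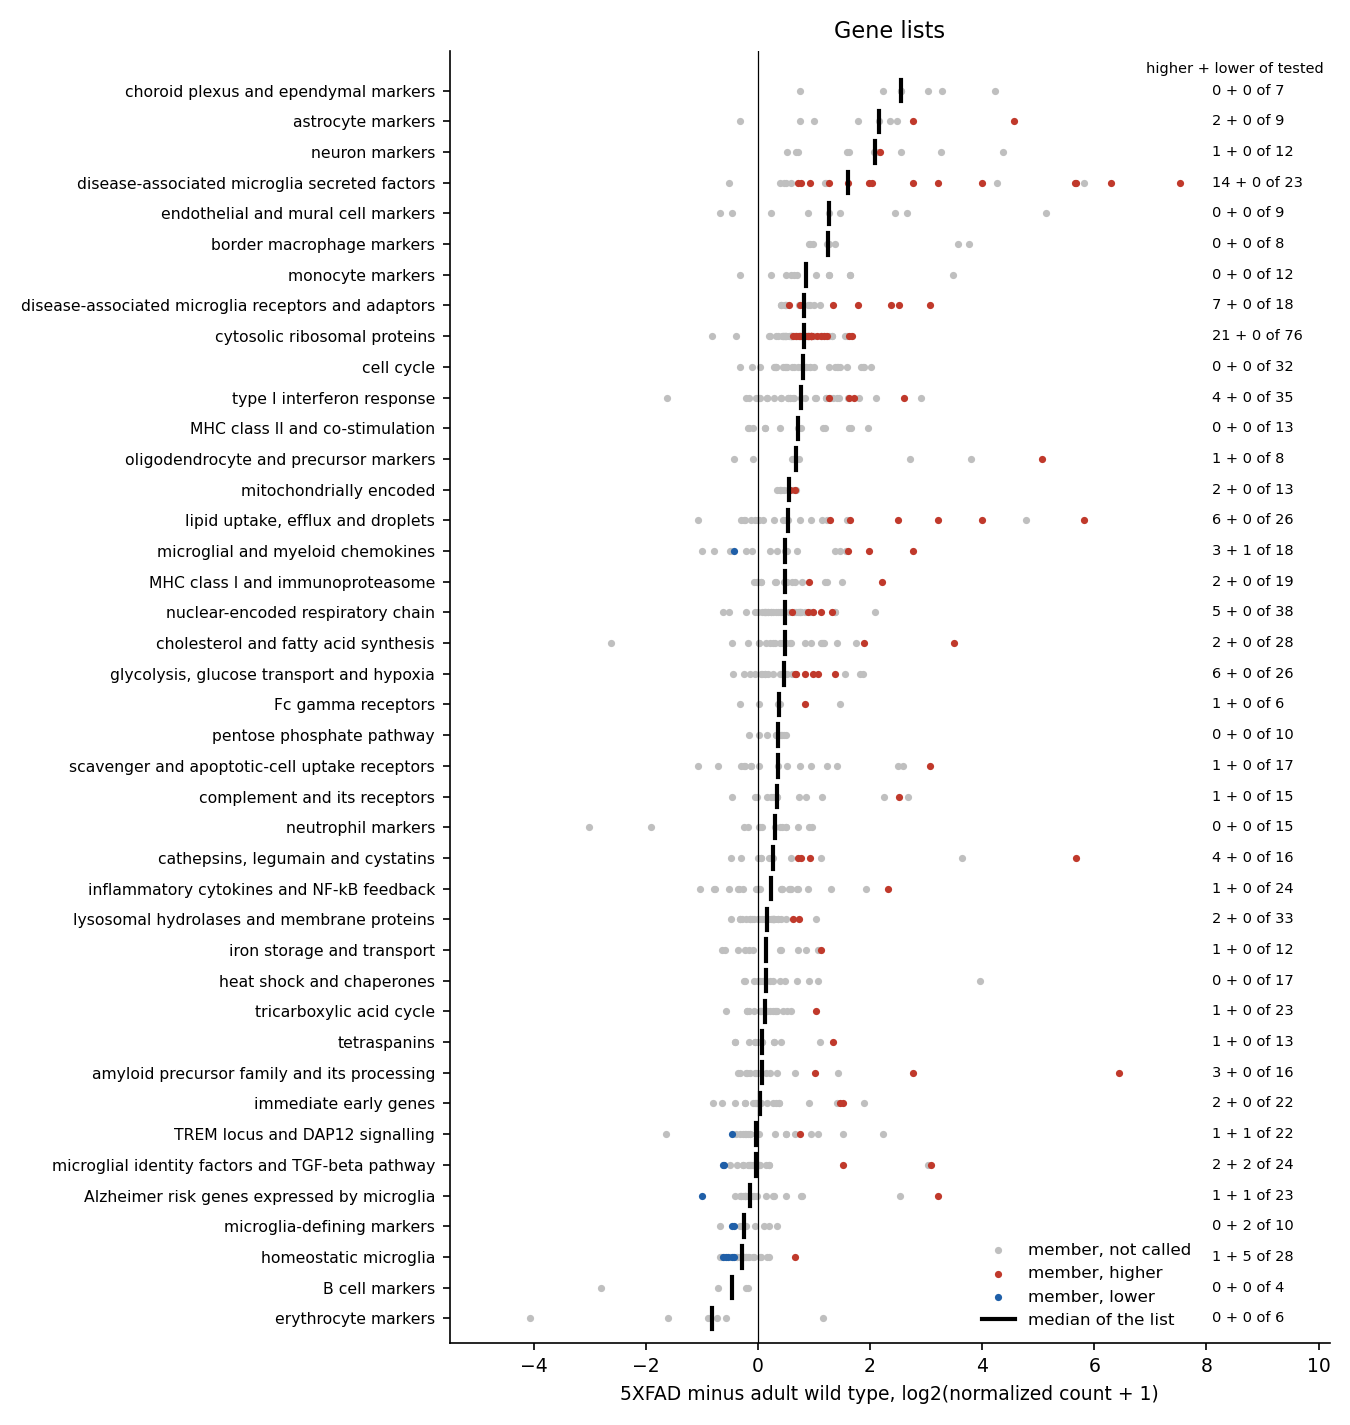
Difference between 5XFAD and adult wild type in log2(normalized count + 1) for each tested member of the gene lists with at least 3 tested members, sorted by the list's median (black bar), with called members in red (higher) and blue (lower) and the counts at the right. Secreted disease-associated factors reach 14 of 23 called (9 without 5XFAD replicate 1) at a median of 1.60, while choroid plexus markers have the highest median, 2.56, with 0 called.

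Microglia of 5XFAD Trem1+/- mice were compared with the same 3 wild-type libraries, so the controls are shared and only values are set side by side. Against wild type 473 genes were called there (2.78%). Cst7 was at 1949, 3321 and 4741 in 5XFAD Trem1+/-, 5.90 ± 0.41 above wild type, Apoe at 63718, 91758 and 93768, 3.19 ± 0.24 above, and Gpnmb at 462, 409 and 487, 7.56 ± 0.79 above. Itgax was at 762, 1542 and 1777, 2.94 ± 0.26 above wild type, and Clec7a at 1860, 1705 and 1886, 2.82 ± 0.22 above. Siglech was at 15894, 17318 and 16980, a difference of -0.09 ± 0.09, and Klf7 at 557, 619 and 390.4, a difference of -0.50 ± 0.21.

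The same genes were set beside aged and young wild-type microglia in the aging table, whose libraries are separate from those above. There 6.43% of 16086 genes were higher and 2.24% lower in aged cells by the same test. Of the 275 genes higher in 5XFAD 268 were tested there and 88 (32.8%) were higher with age, which is 8.67% of the 1015 genes higher with age that were tested in both tables. Of the 62 genes lower in 5XFAD 22 (35.5%) were lower with age, 6.11% of 360. Whether changes differed between the tables was not tested, since they were normalized separately.

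Apoe was at 12995, 12409 and 8336 in young and 17832, 18207 and 22041 in aged wild type, a difference of 0.80 ± 0.14 (SE, adjusted p = 0.0012). Clec7a was at 341, 369.5 and 214 and 704, 791 and 832, a difference of 1.37 ± 0.25 (SE, adjusted p = 0.0014), and Axl at 382, 354 and 328 and 536, 959 and 1036, a difference of 1.19 ± 0.26 (SE, adjusted p = 0.0066). These 3 were called higher in both tables. Cst7 was at 84, 14.2 and 42.8 and 151, 69.3 and 119.7. The difference was 1.5 ± 0.53 (SE, adjusted p = 0.086). Gpnmb was at 2.8, 19.7 and 9.61 and 32.2, 25.4 and 7.23, a difference of 1.04 ± 1.24 (SE, adjusted p = 0.70), and neither gene was called with age. Gpr165 was lower in both, at 993, 1562 and 1425 and 293, 433 and 527 with age, a difference of -1.68 ± 0.20 (SE, adjusted p = 6.6e-06), while Fcrls was lower with age (-0.48 ± 0.09 (SE, adjusted p = 0.0016)) and higher in 5XFAD. Neutrophil markers had a median of 3.08 and monocyte markers of 2.97 in aged against young wild type, beside 0.31 and 0.86 in 5XFAD. Without adult wild type replicate 2 the medians in 5XFAD were below 0, at -0.73 and -0.07.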

How the data were processed

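Per the labels' protocols, libraries were NEBNext Ultra libraries of total RNA from RNeasy mini plus columns. Per the submitters' processing notes the authors used fastp, HISAT2 2.0.5, featureCounts 1.5.0-p3, DESeq2 1.20.0 and GRCm38; the annotation release and strandedness are not given in the sources used here, so overlapping and antisense genes cannot be told apart. The deposited per-library values are a signal, read counts divided by a size factor. Dividing by the value of 1 read gave whole reads within 0.05 for at least 99.9956% of values, and these gave the depths. The deposited fold changes and p-values were not used. Of 54532 symbols 53749 matched GENCODE M21 (GRCm38).

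limma 3.58.1 (R 4.3.3, trend and robust) was fitted to log2(value + 1) of the 3 groups of the table, for genes with a mean of at least 10. edgeR 4.0.16 and DESeq2 1.42.0 on recovered reads, other pseudocounts, filters, scalings, left-out libraries and a replicate block were alternatives. The test was also run on simulated data that held no shift in the makeup of the wild-type libraries. That run therefore does not show how the test behaves with these wild-type libraries. The 42 gene lists (787 genes) and the genes named were chosen with earlier results of these data known. Named genes were Trem1, App and Thy1, the 10 largest rises and falls among called genes with a mean of at least 50 in the higher group and groups that do not overlap, the called members of a list and up to 4 of its other members by level, and some of these are not reported here. Floors and intervals hold for counting error alone, because reads lacking molecular identifiers can be copies of 1 molecule. Replicates of a group differed far beyond sampling noise, with a chi-square of 22.8 to 41.7 per degree of freedom, and none was a repeat deposit.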

Additional observations from a re-analysis of the deposited data

How the results depend on the processing

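Against 337 genes called (275 higher and 62 lower), DESeq2 on the recovered reads called 778 (607 and 171), edgeR 213 (176 and 37), limma without trend and robust 32 (23 and 9), and limma without a filter on low values 795 (597 and 198). A fold of at least 2 as an added condition left 221, of which 10 were lower. Leaving out 1 library gave 134 to 343 genes, 103 to 301 of them higher and 12 to 51 lower, with the fewest in all and the fewest higher without 5XFAD replicate 1 and the fewest lower without adult wild type replicate 2. The other settings stayed within 1.5 times of the reported counts: a mean of at least 50, only the compared groups in the fit, a pseudocount of 0.5 or 5, quantile or TMM scaling, and removal of the trend on exon length, which was chosen after seeing the data. Same-numbered libraries of adult wild type and 5XFAD had residual correlations of -0.033 to 0.030, and 2 of 6 libraries were closest to their own number. Between 5XFAD and 5XFAD Trem1+/-, same-numbered libraries were at 0.203, 0.0594 and 0.0788, the highest value of each 5XFAD library. Whether the numbers pair the samples was not tested. A fit with the replicate number as a block called 628 (502 and 126). For aged against young wild type, 1394 genes (1034 and 360) became 581 (511 and 70) in limma without trend and robust and 785 (41 lower) with a fold of at least 2, and 731 to 1612 (559 to 1109 higher, 161 to 503 lower) with 1 library left out. No called value reversed its sign under any of these settings. Of the 103 called genes that were named, 103 were called by DESeq2, 75 by edgeR, 15 by limma without trend and robust, and 50 to 84 with 1 library left out. Depth limits genes with few reads: 40 of the rises had a wild-type library without a read.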
